A study of Homo sapiens with 6 samples.

Results

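KRT20, a keratin of differentiated intestinal epithelium, was examined in HCT116 cells together with other keratins and markers of the intestine. The group holds 10 of the 50868 genes of the expression table, namely 6 keratins (KRT20, KRT8, KRT18, KRT19, KRT23 and KRT80) and 4 intestinal markers (CDX1, CDX2, VIL1 and CDH17). The genes were found by their symbols, and they were chosen by their place in the epithelium and, in the case of KRT20, selected on its measured log2 fold change between pcYY2 and pcCon in these samples. The changes of the 10 genes in that comparison are therefore given as a description. Whether a gene was called in the fit over all genes is stated for them, but no p is given and the calls are not evidence about these genes.

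HCT116 is an established human colorectal cancer cell line. The cells had received either the plasmid that overexpresses YY2 (pcYY2) or the empty plasmid (pcCon), and polyA RNA of 3 samples per plasmid, all of the same parental line, was sequenced. The labels give neither the time after transfection nor whether samples of a group came from separate cultures, so the p-values measure only the spread between these samples. In bulk RNA, fewer cells expressing a gene and less RNA per cell cannot be told apart.

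Keratins are the intermediate filament proteins of epithelial cells, and each filament is built from pairs of a type I and a type II keratin. Simple epithelia such as the colon carry KRT8 (type II) with KRT18 and KRT19 (type I), and KRT20 (type I) is added in differentiated cells near the surface of the crypt. CDX1 and CDX2 are homeobox transcription factors that set intestinal identity, VIL1 encodes villin, an actin-binding protein of the brush border microvilli, and CDH17 encodes an intestinal cadherin.

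The bases before the transcript start are shown for KRT20, the gene with the largest change among the 10 genes. The sequence is GRCh38 reference, read on the minus strand from 5′ to 3′, covers chr17:40885243-40885492 and ends at the base before the start of the MANE Select transcript in GENCODE 44. Capitals mark TTTAT, a core of the CDX binding motif, and CCAT, the core of the motif shared by YY1 and YY2, wherever they match on either strand.
KRT20: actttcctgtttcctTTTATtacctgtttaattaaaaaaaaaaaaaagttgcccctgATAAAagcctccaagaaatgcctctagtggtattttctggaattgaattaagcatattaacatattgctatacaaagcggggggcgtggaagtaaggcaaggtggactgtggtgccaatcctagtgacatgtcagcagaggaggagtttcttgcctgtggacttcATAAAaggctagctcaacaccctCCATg
TTTAT matched 3 times in the KRT20 window, and of the windows of 250 bases before 19061 genes 26.0% hold at least 1 match and 3.12% at least 3. CCAT matched 1 time before KRT20, and 64.3% of all windows hold it. The longer motif GCCATNTT was not in this window, nor in those of KRT8 and KRT18, and is in 3.49% of all windows. The letters ATAAAAGG, which resemble a TATA box and overlap a TTTAT match, lie from 28 to 21 bases before the start of KRT20, and a further match lies on the opposite strand near the far end of the window. These letters were searched for after the sequence had been seen, and 1.34% of all windows hold them. In the same window of KRT8, TTTAT matched 2 times, CCAT 1 time and ATAAAAGG 1 time, and in that of KRT18, TTTAT matched 0 times and CCAT 1 time. The KRT8 window (chr12:52905077-52905326) lies inside the annotated gene and overlaps exons of other KRT8 transcripts, and that of KRT18 overlaps KRT18 exons. All these matches describe letters only.

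The depth was between 15158360 and 29572882 counts per sample, deepest in pcYY2 sample 2, so that 3 counts, taken as the floor, correspond to between 0.101 and 0.198 CPM (counts scaled to a common library total). YY2 had 111, 126 and 72 counts in pcCon and 488, 898 and 555 in pcYY2 (log2 fold change 2.39 with a standard error, SE, of 0.137, and an adjusted p of 0.00107 in edgeR), and plasmid and genomic YY2 reads cannot be told apart. Of the 8 markers of colon epithelium, 7 were expressed and VIL1 was nearly absent. The summed CPM of these markers, which include KRT8, KRT18 and KRT19, was 2129 to 2220 in pcCon and 2787 to 3215 in pcYY2. Outside the keratins, EPCAM (log2 fold change 0.10, adjusted p = 0.139), CDH1 (0.22, adjusted p = 0.391) and CLDN7 (-0.21, adjusted p = 0.134) did not pass the threshold. Summed CPM was 37.5 to 42.6 in pcCon and 42.6 to 50.3 in pcYY2 for 8 mesenchymal markers, of which 2 (COL1A2 and CDH2) had no counts. For 4 endothelial markers, these sums were 0.396 to 1.87 and 0.816 to 1.89. For 6 immune markers, they were 2.79 to 4.23 and 4.31 to 7.24, and pcYY2 sample 2 had 69 counts of PTPRC against 1 and 6 in the other pcYY2 samples.

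KRT20, KRT8 and KRT19 were higher in pcYY2 than in pcCon, KRT20 by the largest factor of these, while KRT18, KRT23, KRT80 and CDX2 lay close to their level in pcCon. CDX1, VIL1 and CDH17 were at or next to 0 in both groups. FPKM is the count scaled to gene length and sample depth. The edgeR test covered genes whose FPKM averaged 1 or more over all samples, and a gene was called where its p, adjusted after Benjamini and Hochberg, was 0.05 or less. Of the 10 genes, 6 passed this filter, and of these 3 were called, all higher in pcYY2 (KRT20, KRT8 and KRT19). Over all 12015 tested genes, 4.52% were called higher, 4.85% lower and 9.37% in either direction. The 3 called genes were also the ones whose groups did not overlap, which held for 35.8% of all tested genes. As this comparison was the one the genes were chosen on, nothing is read from these counts.

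KRT20 (ENSG00000171431; chromosome 17, 40875941 to 40885227, minus strand) had 20, 39 and 24 counts in pcCon samples 1 to 3 and 63, 190 and 103 counts in pcYY2 samples 1 to 3. These correspond to 1.10, 2.14 and 1.58 CPM in pcCon and 4.11, 6.43 and 5.60 CPM in pcYY2. Every pcYY2 sample was above every pcCon sample, and within each group sample 2 was the highest. The FPKM was 0.786 ± 0.254 (SD, n = 3) in pcCon and 2.63 ± 0.574 in pcYY2, a log2 fold change of 1.77 (SE 0.280), or 3.40-fold. The ratio of the summed counts, scaled to the summed depth, was 3.50 with an exact 95% interval of 2.75 to 4.50, which covers counting error only. KRT20 passed the filter through its pcYY2 samples, since its mean FPKM was 1.71 over all samples and below 1 in pcCon. With a single sample left out, the log2 fold change was between 1.54 and 2.04, and KRT20 was no longer called without pcCon sample 1 (1.54), pcCon sample 3 (1.76) or pcYY2 sample 3 (1.75).

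KRT8 (ENSG00000170421; chromosome 12, 52897187 to 52949954, minus strand) is the type II partner in simple epithelial filaments. It had 883, 876 and 924 CPM in pcCon and 1398, 1610 and 1224 CPM in pcYY2, from 14004 to 47611 counts per sample. The lowest pcYY2 sample, sample 3, was above the highest pcCon sample. In FPKM, KRT8 went from 62.8 ± 1.81 to 99.1 ± 13.6, a log2 fold change of 0.67 (SE 0.0952). It was not called without pcCon sample 2, where the log2 fold change was 0.66.

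KRT19 (ENSG00000171345; chromosome 17, 41523617 to 41528308, minus strand), a type I keratin without a tail domain, had 454, 453 and 470 CPM in pcCon and 650, 711 and 709 CPM in pcYY2. The groups did not overlap, and the spread within each group was small against the distance between them. Its FPKM was 107 ± 2.27 in pcCon and 161 ± 8.18 in pcYY2, a log2 fold change of 0.60 (SE 0.0483). KRT19 was called with any 1 of the 6 samples left out.

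KRT18 (ENSG00000111057; chromosome 12, 52948871 to 52952901, plus strand), the usual type I partner of KRT8, had 357, 365 and 384 CPM in pcCon and 371, 430 and 394 CPM in pcYY2. The groups overlapped, as pcYY2 sample 1 lay below pcCon sample 3. The FPKM was 55.9 ± 2.14 and 60.4 ± 4.53, with a log2 fold change of 0.13 (SE 0.0649).

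KRT23 (ENSG00000108244; chromosome 17, 40922696 to 40937634, minus strand), a type I keratin, had 25.3, 27.6 and 22.9 CPM in pcCon and 27.7, 24.8 and 26.2 CPM in pcYY2. Its groups overlapped throughout, with a log2 fold change of 0.06 (SE 0.0919). KRT80 (ENSG00000167767; chromosome 12, 52168996 to 52192000, minus strand), a type II keratin, lay under the filter with 3.24, 2.74 and 2.84 CPM in pcCon and 2.48, 2.81 and 2.39 CPM in pcYY2. In the fit with a lower filter, a mean FPKM of 0.1 or more, its log2 fold change was -0.16 (SE 0.177), and its groups overlapped too.

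Among the intestinal markers, CDX2 (ENSG00000165556; chromosome 13, 27962137 to 27971139, minus strand) was the one with reads in every sample. It had 20.7, 22.1 and 19.7 CPM in pcCon and 18.2, 21.4 and 19.7 CPM in pcYY2, which overlapped, and a log2 fold change of -0.06 (SE 0.0956). CDX1 (chromosome 5, 150166795 to 150184558) and CDH17 (chromosome 8, 94127171 to 94217303) had 0 counts in all samples, which allows at most 0.101 to 0.198 CPM per sample. VIL1 (chromosome 2, 218419092 to 218453295) had 1 count in pcCon sample 3 and 2 counts in pcYY2 sample 2. In VIL1, 3045 exon bases are shared with USP37 on the opposite strand, which had between 1001 and 1494 counts. None of these markers rose above the floor of 3 counts in any sample, so a difference between the groups was not detectable at this depth.

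**Figure D1:**
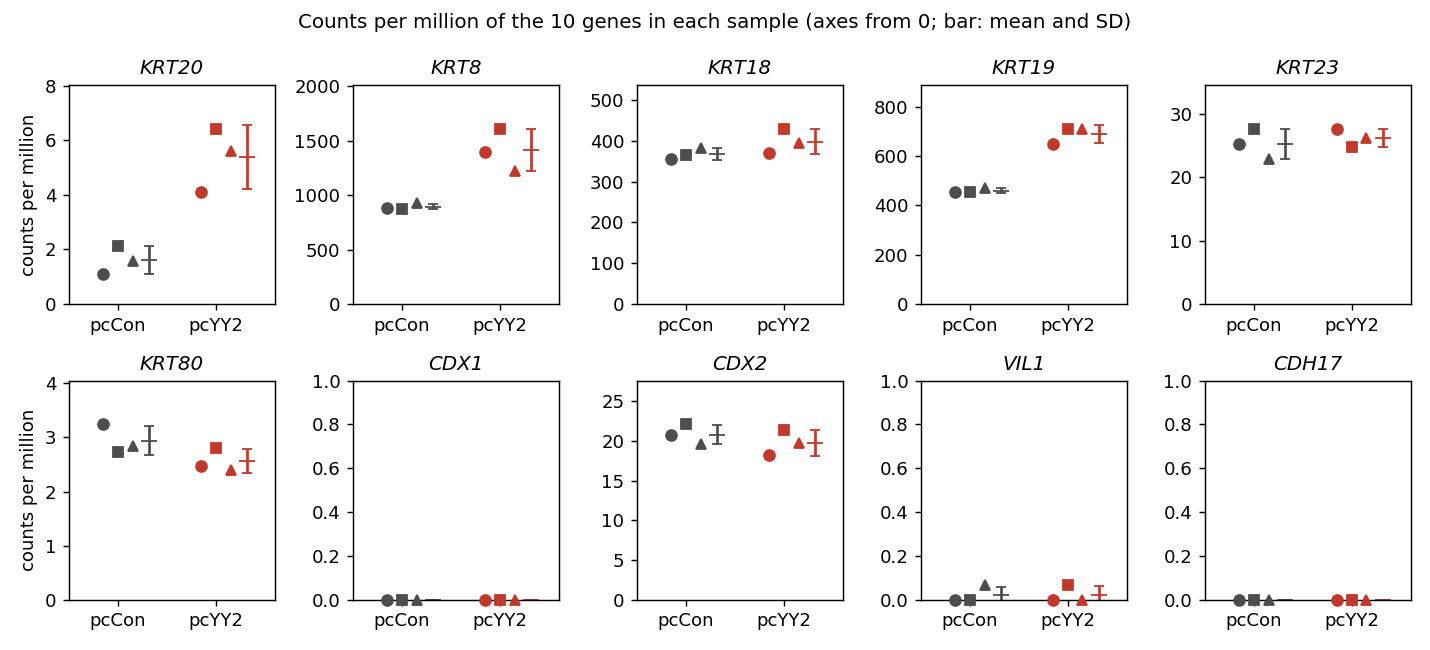
Counts scaled to library size (CPM, vertical axes from 0) of the 10 genes in the pcCon (grey) and pcYY2 (red) samples; circles, squares and triangles are samples 1, 2 and 3, and bars give mean and SD (n = 3). KRT20, KRT8 and KRT19 lie higher in all pcYY2 samples, whereas KRT18, KRT23, KRT80 and CDX2 overlap and CDX1, VIL1 and CDH17 sit at or next to 0.

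The levels were ordered within each group per kb of the MANE Select transcript, as CPM per kb. In pcCon, KRT8 was the highest with 501 ± 14.4 (SD, n = 3), followed by KRT19 with 330 ± 6.99 and KRT18 with 261 ± 9.98. KRT23 (11.4 ± 1.07), CDX2 (6.04 ± 0.353), KRT20 (0.890 ± 0.288) and KRT80 (0.759 ± 0.0685) followed at much lower levels, and the last 2 did not differ beyond their spread. In pcYY2, the order was the same, but KRT20 (2.98 ± 0.650) was now apart from KRT80 (0.661 ± 0.0563). KRT8 reached 791 ± 108, KRT19 496 ± 25.2 and KRT18 282 ± 21.1 CPM per kb there, with KRT23 at 11.9 ± 0.653 and CDX2 at 5.74 ± 0.469. KRT20 was thus a rare keratin mRNA in both groups.

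The order of KRT8 and KRT19 depends on the length used. The deposited FPKM implies a fixed length for each gene, which was 14233 bases for KRT8, 6593 for KRT18, 4282 for KRT19 and 2044 for KRT20, against MANE Select transcripts of 1784, 1413, 1390 and 1804 bases. Over 10132 genes that had 100 or more counts in every sample, the median ratio of the 2 lengths was 2.40. In FPKM, KRT19 is therefore above KRT8, while per kb of transcript KRT8 is above KRT19. Fold changes of a gene between groups do not depend on this length.

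The 3 abundant keratins KRT8, KRT19 and KRT18 made up nearly all keratin mRNA in both groups, 93.8% ± 0.405 of the summed keratin FPKM in pcCon and 93.3% ± 0.200 in pcYY2. The share of KRT18 in the summed keratin FPKM was 22.9%, 23.2% and 23.5% in pcCon and 17.2%, 17.7% and 17.9% in pcYY2, and the groups did not overlap. The ratio of KRT8 to KRT18 in FPKM was 1.11 to 1.15 in the pcCon samples and 1.44 to 1.75 in the pcYY2 samples, and that of KRT19 to KRT18 was 1.92 ± 0.0388 and 2.67 ± 0.113. KRT8 and KRT19 were higher in pcYY2 while KRT18 lay close to its pcCon level, so the ratio of the filament partners differed between the groups.

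KRT20 held 0.326% ± 0.106 of the summed keratin FPKM in pcCon and 0.762% ± 0.129 in pcYY2, without overlap of the samples. The summed keratin FPKM itself was 241 ± 6.56 in pcCon and 344 ± 21.9 in pcYY2. In FPKM, the ratio of type II to type I keratins was 0.364 ± 0.00463 and 0.421 ± 0.0550, and here pcYY2 sample 3 (0.358) was below all pcCon samples. This depended on the length used. The same ratio per kb of MANE Select transcript was 0.820 ± 0.00918 and 0.979 ± 0.124. There pcYY2 sample 3 (0.837) was above all pcCon samples (0.810 to 0.828). Per kb of MANE Select transcript, KRT18 held 23.2% in pcCon and 17.5% in pcYY2, KRT8 44.6% and 48.9%, KRT19 29.4% and 30.9%, and KRT20 0.0793% and 0.184%, so KRT8 rather than KRT19 had the largest share on that scale. These shares and ratios come from the comparison the genes were chosen on and were not tested.

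**Figure D2:**
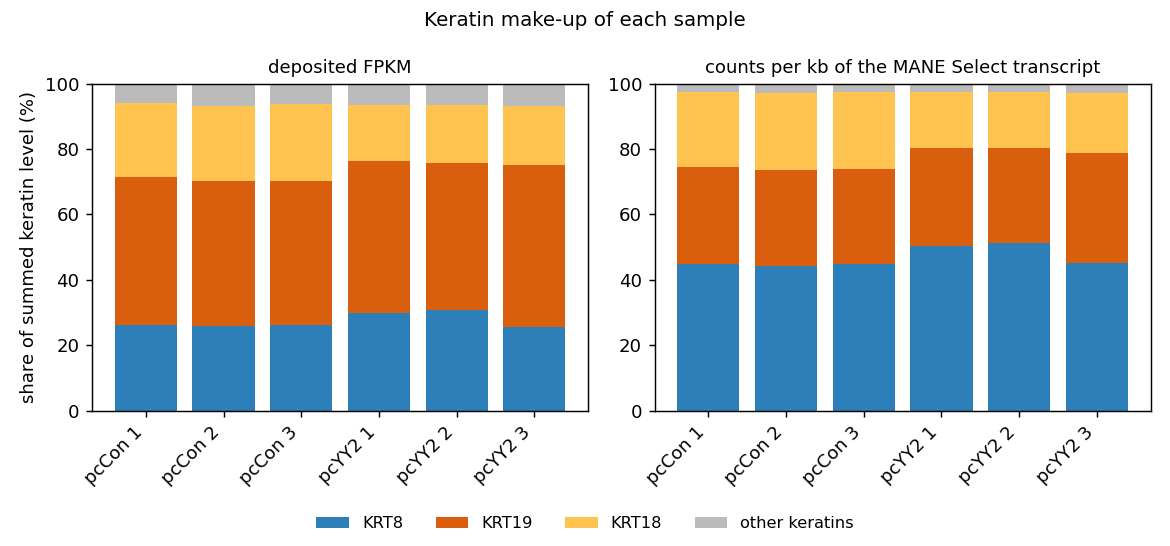
Share of each keratin (vertical axis, percent of the summed level of all keratins) in each pcCon and pcYY2 sample, from the deposited FPKM (left) and from counts per kb of the MANE Select transcript (right). On both scales KRT18 takes a smaller share in each pcYY2 sample (17.2% to 17.9% of FPKM) than in each pcCon sample (22.9% to 23.5%).

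KRT8 and KRT18 lie side by side on chromosome 12 on opposite strands. The KRT8 MANE Select transcript shares 0 bases with exons of KRT18. The annotations of both genes in GRCh38 overlap over 1084 bases, of which 525 are exonic in both. Of the 1413 bases of the KRT18 MANE Select transcript, 375 are in exons of other KRT8 transcripts. Whether the counting used the strand is not given in the sources used here, so reads from these bases may be missing from or assigned to either gene. Processed pseudogenes of both are numerous. Of 50 KRT8 pseudogenes in the table, 30 had counts, together 3.63% to 5.43% of the summed reads of KRT8 and its pseudogenes, and of 66 KRT18 pseudogenes 33 had counts, together 0.726% to 0.991%. KRT19 had 1 of 5 pseudogenes with counts. The log2 fold change of the gene and its pseudogenes together was 0.66 for KRT8, 0.13 for KRT18 and 0.60 for KRT19.

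The table holds 49 further keratin genes, of which 18 had no count in any sample. Only KRT10 and KRT222 passed the filter at a mean FPKM of 1. KRT10 (chromosome 17, 40818117 to 40822595), a type I keratin of suprabasal epidermis, was called higher, with 238, 272 and 242 counts in pcCon and 303, 665 and 424 in pcYY2, or 13.1 to 16.0 CPM against 19.8 to 23.1 CPM. Its log2 fold change was 0.59 (SE 0.110, adjusted p = 0.0251). KRT10 shares 61 exon bases with KRT10-AS1 on the opposite strand, which had 286 to 687 counts. For KRT222, a keratin-like gene, the log2 fold change of 0.01 did not pass (adjusted p = 0.979). Without 1 sample, KRT10 was called only without pcYY2 sample 1, with adjusted p between 0.0339 and 0.0820 over the 6 fits.

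Several keratins of stratified squamous epithelium, which are scarce in these cells, were higher in pcYY2 when less expressed genes were included. At a mean FPKM of at least 0.1, 7 of the 49 keratins were tested and 4 were called (KRT6A, KRT13, KRT15 and KRT10). KRT6A and KRT13 had mean FPKM values of 0.0157 and 0.0909 in pcCon and 0.687 and 0.724 in pcYY2, so both passed this filter through pcYY2 and could enter only as genes higher there. KRT15 and KRT10, which were above the filter in both groups, were also called higher. For this reason the direction and the number of called keratins are given as a description. Of all 18877 genes tested, 2.63% were called higher, 2.19% lower and 4.82% in either direction. This filter had been planned as an alternative, and the genes named from it were chosen after their values had been seen.

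KRT6A (chromosome 12, 52487174 to 52493257), a type II keratin of wound-edge and hyperproliferative epidermis, had 0, 1 and 2 counts in pcCon and 39, 86 and 50 in pcYY2. All pcCon samples were below the floor of 3 counts and all pcYY2 samples far above it. The ratio of the summed counts per depth was 47.6, with an exact 95% counting interval of 16.0 to 233. Its near-identical paralogs KRT6B and KRT6C had 6 and 0 counts in all samples together, and reads shared among the 3 genes cannot be told apart. KRT6A was called with any 1 sample left out, which is a description only, as it passed the filter through pcYY2.

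KRT13 (chromosome 17, 41500981 to 41505705), a type I keratin of mucosal squamous epithelium, had 11, 14 and 4 counts in pcCon and 67, 145 and 69 in pcYY2. This corresponds to 0.264 to 0.767 CPM in pcCon and 3.75 to 4.90 CPM in pcYY2, without overlap. The log2 fold change was 2.99 (SE 0.320). KRT13 was called with any 1 sample left out, which again is a description only, as it passed the filter through pcYY2.

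KRT15 (chromosome 17, 41513743 to 41522529), a keratin of basal epithelial cells, had 102, 125 and 113 counts in pcCon and 159, 288 and 234 in pcYY2, or 5.60 to 7.46 CPM against 9.74 to 12.7 CPM. The groups did not overlap, with a log2 fold change of 0.76 (SE 0.159, adjusted p = 0.0423). KRT15 was not called without any 1 of the 6 samples (adjusted p 0.0709 to 0.117), and the count of called keratins was then 2 or 3, with 3 only without pcYY2 sample 1.

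KRT7, a keratin of glandular epithelia that is usually scarce in the colon, had 56, 70 and 57 counts in pcCon and 60, 166 and 89 in pcYY2 (log2 fold change 0.48, adjusted p = 0.194). KRT5 and KRT14, the keratin pair of basal epidermis, were too scarce for either filter. KRT14 had 0 counts in each pcCon sample and 5, 6 and 2 in pcYY2, and KRT5 had 6, 1 and 3 against 7, 16 and 10. KRT81, a hair keratin, had 30 of its 33 counts in pcYY2 sample 2.

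The 10 squamous markers had a summed CPM of 19.8 to 24.2 in pcCon and 37.9 to 43.0 in pcYY2, mostly from KRT10 and KRT15. The defining markers TP63, IVL, KRT1 and KRT17 were at or near 0, with at most 4 counts in any sample. Which cells the reads came from was not tested.

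**Figure D3:**
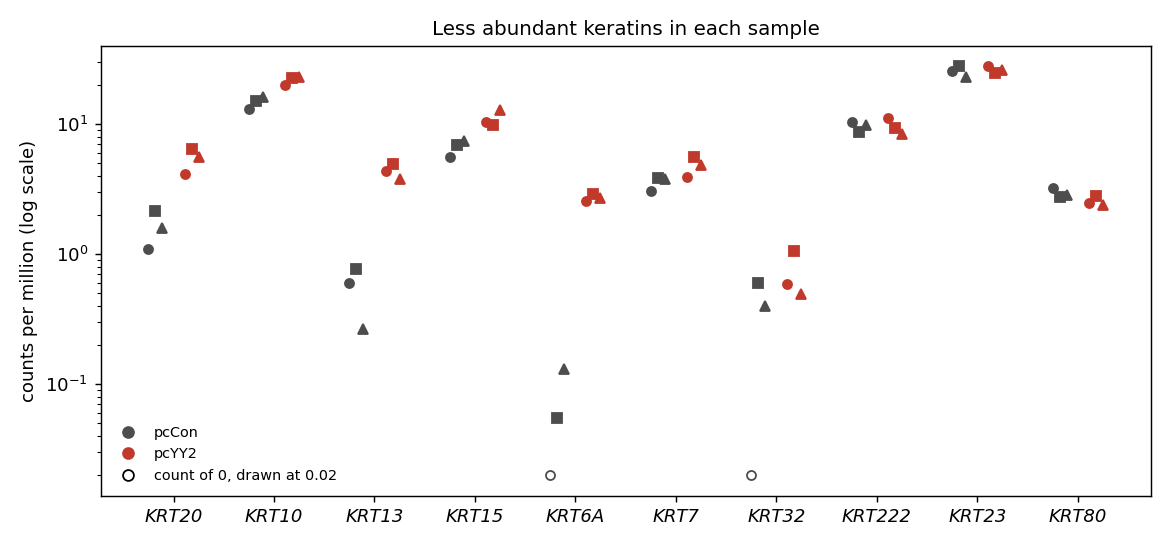
CPM (log scale) of the less abundant keratins in the pcCon (grey) and pcYY2 (red) samples, with circles, squares and triangles for samples 1, 2 and 3 and open symbols for a count of 0, drawn at 0.02. KRT6A and KRT13 lie far apart between the groups, KRT20, KRT10 and KRT15 lie apart by less, and KRT23, KRT80, KRT222 and KRT32 overlap.

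Most keratin genes lie in 2 clusters, type I on chromosome 17 and type II with KRT18 on chromosome 12. In the type I cluster, KRT13, KRT15 and KRT19 follow each other within 27328 bases (GRCh38 chromosome 17, 41500981 to 41528308). All 3 were called higher at a mean FPKM of at least 0.1, as were 2.63% of all genes tested there. This is a description only. KRT13 passed the filter through pcYY2, KRT19 was chosen on this comparison, and KRT15 was not called without any 1 sample. KRT20 lies apart from these 3 genes. The genes next to KRT20 were both near 0. KRT12, a cornea keratin at 8666 bases, had 2 counts in all samples together, and the long noncoding RNA AC004231.2, at 36188 bases on the other side, had 1 to 5 counts per sample (log2 fold change -0.38, adjusted p = 0.839). KRT23, the next keratin beyond, lay close to its pcCon level.

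**Figure D4:**
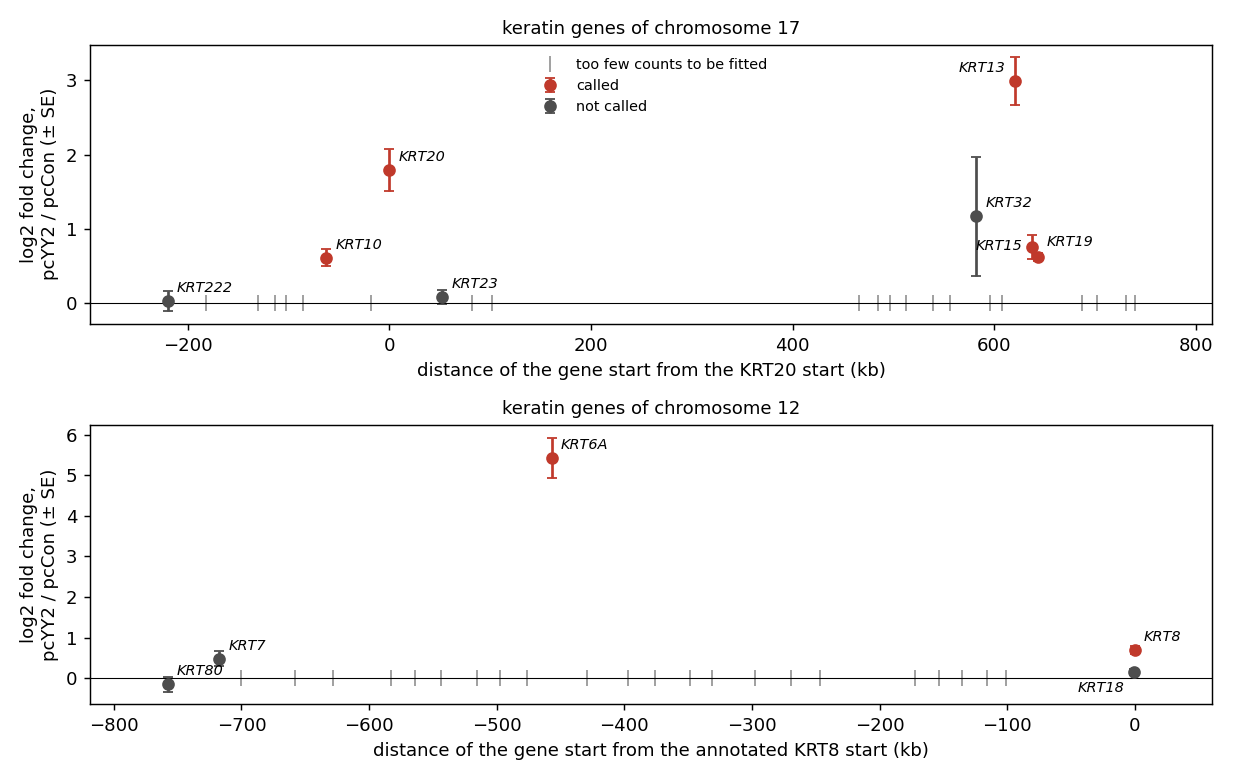
Log2 fold change of pcYY2 against pcCon with its standard error (vertical axis, for a mean FPKM of 0.1 or more). The horizontal axis is the distance in kb from the start of KRT20 (top, chromosome 17) or of the annotated KRT8 gene (bottom, chromosome 12). Red marks called genes, and ticks mark keratins with too few counts. KRT13, KRT15 and KRT19 are called side by side, KRT20 and KRT10 lie elsewhere in the cluster, and KRT6A stands alone between keratins with few counts. KRT13 and KRT6A passed the filter through pcYY2, so their calls are a description only.

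Genes whose levels across the 6 samples were among the most like KRT20 were PPCDC (Pearson r 0.998), POLR2F (0.997), LGALS1 (0.994) and CDCA5 (0.993), by log2 CPM after TMM scaling. A correlation above 0.9 was reached by 648 of 12009 genes (5.40%), and the 6 points share their libraries and fall into the same groups. Among the other keratins and markers, r with KRT20 was 0.954 for KRT19, 0.903 for KRT8, 0.773 for KRT18, 0.348 for KRT23 and -0.0791 for CDX2.

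The brush border is the layer of actin-rich microvilli on absorptive cells. Of its 19 genes in the table, 12 were tested, of which 0 were called higher and 2 lower. Over all tested genes, 4.52% were called higher and 4.85% lower. The list had a median log2 fold change of 0.00307 beside 0.00197 over all tested genes. EZR, encoding ezrin, which links actin to the membrane, fell from an FPKM of 208 ± 3.87 to 151 ± 3.14 (log2 fold change -0.45, SE 0.0338, adjusted p = 0.00182). COBL, encoding an actin nucleator, fell from 1.72 ± 0.131 to 1.29 ± 0.0961 (-0.39, adjusted p = 0.0466), but was not called without any 1 sample (adjusted p 0.0580 to 0.137) nor with the lower filter, so the count was then 1. SLC9A3R1, encoding an ezrin-binding scaffold (0.08, adjusted p = 0.661), and PLS3, encoding a plastin (0.06, adjusted p = 0.476), did not pass.

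Of 29 genes of absorptive enterocytes and colonocytes, 15 had no count in any sample and 4 were tested. Of the tested genes, 0 were called higher and 1 lower, beside 4.52% and 4.85% of all tested genes. CA2, encoding a cytosolic carbonic anhydrase, fell from an FPKM of 12.5 ± 0.811 to 9.03 ± 0.137 (log2 fold change -0.46, SE 0.0720, adjusted p = 0.0158), although it was not called without pcCon sample 2, pcCon sample 3 or pcYY2 sample 3 (count then 0, adjusted p up to 0.0602). FABP5, encoding a fatty acid-binding protein, had 38.5 ± 5.23 and 50.2 ± 3.62 (0.40, adjusted p = 0.0627), and the sulfate transporter gene SLC26A2 0.11 (adjusted p = 0.327). The list had 0 genes called higher, but FABP5 was called higher without a filter and by DESeq2.

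Secretory cell genes were scarce as well, with 10 of 26 at 0 counts in every sample and 2 tested. Of the tested genes, 0 were called higher and 1 lower, beside 4.52% and 4.85% of all tested genes. GFI1, encoding a transcription factor of the secretory lineage, fell from an FPKM of 1.76 ± 0.125 to 1.17 ± 0.0712 (log2 fold change -0.57, SE 0.118, adjusted p = 0.0329), and was not called without any 1 sample (adjusted p 0.0545 to 0.102) nor with the lower filter. FOXA3, encoding a forkhead factor of goblet cells, was at 0.27 (adjusted p = 0.465).

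Intestinal stem and progenitor cell genes had 4 of 11 tested genes called, all lower in pcYY2, where 4.85% of all tested genes were called lower. The median log2 fold change was -0.28 beside 0.00197 over all tested genes. LGR5, ASCL2, OLFM4 and SMOC2, which mark the stem cells of the crypt base, had at most 2 counts in any sample. SOX9, encoding a transcription factor of crypt base cells, fell from an FPKM of 42.9 ± 1.59 to 29.0 ± 1.68 (log2 fold change -0.55, SE 0.0590, adjusted p = 0.00557). RNF43, encoding a ubiquitin ligase that removes Wnt receptors, fell from 21.3 ± 0.611 to 17.4 ± 0.0517 (-0.28, adjusted p = 0.0133), MSI1, encoding an RNA-binding protein, from 8.999 ± 0.438 to 7.26 ± 0.0753 (-0.30, adjusted p = 0.0473), and the Wnt target AXIN2 from 7.12 ± 0.399 to 5.43 ± 0.587 (-0.37, adjusted p = 0.0487). CD44 (0.09, adjusted p = 0.332) and BMI1 (-0.28, adjusted p = 0.0507) did not pass. SOX9 was called with any 1 sample left out, RNF43 in 3 of 6 such fits, AXIN2 in 1 and MSI1 in 0. The number of called genes was 1 without pcCon sample 1, pcCon sample 2 or pcYY2 sample 3, 2 without pcCon sample 3, 3 without pcYY2 sample 1 and 4 without pcYY2 sample 2, and it was 2 with the lower filter.

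Among intestinal and epithelial transcription factors, 1 of 12 tested genes was called higher and 2 lower, beside 4.52% and 4.85% of all tested genes. Their median log2 fold change was -0.14 beside 0.00197 over all tested genes. HES1, the Notch effector that restrains secretory fate, fell from an FPKM of 9.47 ± 0.567 to 5.01 ± 0.743 (log2 fold change -0.91, SE 0.122, adjusted p = 0.0098). GRHL1, encoding a grainyhead factor of epithelial cells, fell from 1.31 ± 0.0811 to 0.816 ± 0.107 (-0.66). Its mean FPKM was 1.06 over all samples and below 1 in pcYY2, so it passed the filter through pcCon. Its call in this fit is therefore a description only. At a mean FPKM of at least 0.1, which GRHL1 passed in both groups, its log2 fold change was -0.64 (adjusted p = 0.0385). EHF, encoding an epithelial ETS factor, rose from 3.22 ± 0.0109 to 4.27 ± 0.104 (0.42, adjusted p = 0.0119). ID1, an inhibitor of helix-loop-helix factors (-0.15, adjusted p = 0.0986), and TCF7L2, the Wnt effector of the intestine (0.10, adjusted p = 0.286), did not pass. HES1 was called with any 1 sample left out. Without pcCon sample 1, 2 or 3, 1 gene of the list was called, as EHF and GRHL1 then missed the threshold, and without pcYY2 sample 1 or 3 there were 2.

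A further list held genes for proteins that anchor or organise keratin filaments, such as desmosomal plaque proteins and 14-3-3 proteins. Of 18 tested genes, 3 were called higher, 3 lower and 12 in neither direction, beside 4.52% called higher and 4.85% lower over all tested genes. Their median log2 fold change was -0.05 beside 0.00197 over all tested genes. SFN, encoding 14-3-3 sigma, rose from an FPKM of 112 ± 2.52 to 163 ± 13.7 (log2 fold change 0.55, SE 0.0703, adjusted p = 0.00869), and FAM83H, which encodes an organiser of keratin filaments, rose from 18.6 ± 0.478 to 22.5 ± 1.44 (0.29, adjusted p = 0.0342). The plakin genes PPL, encoding periplakin, and EPPK1, encoding epiplakin, fell (-0.42, adjusted p = 0.0105, and -0.35, adjusted p = 0.0295). The other 2 were PLEC, encoding plectin (0.19, adjusted p = 0.0473), and DSP, encoding desmoplakin (-0.15, adjusted p = 0.0497). DSG2, a desmosomal cadherin gene (-0.05, adjusted p = 0.394), and YWHAH, encoding another 14-3-3 protein (0.17, adjusted p = 0.0529), did not pass. SFN and PPL were called with any 1 sample left out, and the count of the list was 3 without pcYY2 sample 1 and 2 without any other sample.

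**Figure D5:**
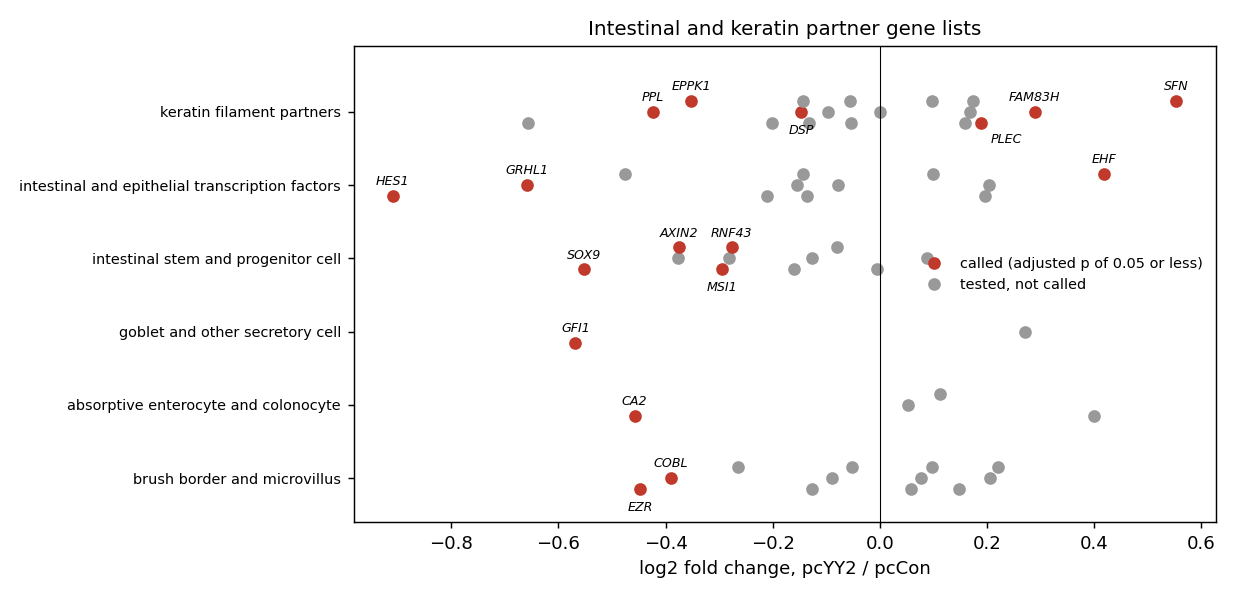
Log2 fold change of pcYY2 against pcCon (horizontal axis) of the tested genes in 6 lists, with called genes in red and named. The called genes of the brush border, absorptive, secretory and stem cell lists all lie below 0, and those of the transcription factors and keratin partners lie on both sides.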

How the data were processed

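RNA-Seq had been performed on polyA RNA of 6 HCT116 samples (3 pcCon, 3 pcYY2). As the methods describe, low-quality reads were removed and the remainder mapped by the authors to GRCh38 with TopHat. The submitters' processing notes also name Bowtie2 and HTSeq, and the strand setting of the counting is not given in the sources used here. The table deposited by the authors holds raw counts per gene and FPKM per gene and sample. Each deposited FPKM is the count over the sample's total and over 1 length per gene (largest deviation 0.000858% over 10859 genes). No column was left without a sample. The authors' output of differential expression was not used here.

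CPM was computed from the count and the total count of each sample. Counts of pcYY2 and pcCon were compared by the quasi-likelihood test of edgeR 4.0.16 in R 4.3.3, with TMM scaling, for genes averaging an FPKM of 1 or more, with Benjamini-Hochberg adjustment and a threshold of 0.05. Adjusted p-values cover all tested genes, and those of KRT15, KRT7, GRHL1 and AC004231.2 come from the fit at a mean FPKM of at least 0.1. No p is given for KRT6A and KRT13, which passed that filter through pcYY2. A log2 fold change is pcYY2 against pcCon. The smallest p that exact permutation of 3 and 3 samples allows is 0.1 (two-sided).

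Alternatives were a mean FPKM of 0.1, no filter, DESeq2 1.42.0, DESeq2 size factors or upper quartile scaling in edgeR, limma 3.58.1 on log2(FPKM + 1) and log2(FPKM + 0.1), a replicate block, leaving out each sample, a test against a log2 fold change of 1 for KRT20, and sums with pseudogenes. Fits of the scarce keratins under the block, DESeq2 and left-out samples, and shares per kb of MANE Select transcript, were added after seeing the data.

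The 10 genes and the lists were chosen with earlier results of these data known. Lists were written from general knowledge. The genes named from a list are the called ones with non-overlapping groups, at most the 4 with the smallest p, and the 2 tested genes of highest mean FPKM that were not called. PLEC and DSP, the scarce keratins, the crypt base markers and the non-keratin markers were named outside this rule, after their values had been seen. Positions are those of the table, and promoter windows, transcript lengths and overlaps come from GENCODE 44, in which 97.6% of the table's genes were found. The genes most like KRT20 were taken by Pearson r over the tested genes. Some results that were computed are not reported here. Protein sequences were not used here. Tables were made with pandas 2.3.3 in Python 3.11.15, intervals with scipy 1.17.1, and plots with matplotlib 3.10.9.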

Additional observations from a re-analysis of the deposited data

How the results depend on the processing

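The 10 genes were chosen on this comparison, so their values under the alternatives are a description and no support. The number of the 10 genes called was 2 or 3 in all 14 alternatives, between 2 and 3 with each sample left out. KRT20 did not pass the test against a log2 fold change of 1, where the estimate stayed 1.77, and its log2 fold change was 1.54 to 2.04 with samples left out. The log2 fold change of KRT23 was between -0.00086 (without pcCon sample 3) and 0.13 with samples left out, and that of CDX2 between -0.12 and 0.0024 (without pcYY2 sample 1), so both reversed. At a mean FPKM of 0.1, a filter that KRT6A and KRT13 passed through pcYY2, both were called with the block too. DESeq2 gave KRT6A no adjusted p.

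With the mean FPKM at 0.1 or without a filter, the other keratins had 4 called genes, brush border 1, secretory 0 and stem cell genes 2. At 0.1, these lists had 7, 13, 4 and 13 tested genes. Over all genes, 496 were called higher and 414 lower at 0.1 (2.63% and 2.19% of those tested). Without a filter, 489 were called higher and 431 lower. Absorptive genes had 2 without a filter and 2 by DESeq2, in both cases 1 higher and 1 lower. By limma with either pseudocount, brush border genes had 1 and keratin partners 3. Over all tested genes, DESeq2 called 713 higher and 726 lower, and limma 461 or 463 higher and 563 lower. With each sample left out in turn, 138 to 412 genes were called higher and 147 to 393 lower. In these fits, other keratins had 0 to 1, or 2 to 3 at a mean FPKM of 0.1, brush border 1, absorptive 0 to 1, secretory 0, stem cell 1 to 4, transcription factors 1 to 3 and keratin partners 2 to 3.

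Each group carries the sample numbers 1 to 3. Deviations from the group means correlated at -0.0318 to -0.0175 between samples of the same number and at -0.031 to 0.0569 between others. Samples of the same number were thus no more alike by this measure. The deviations balance out within each group, so these correlations depend on each other. Whether samples of the same number shared a batch was not tested. With the number as a replicate block, 51 genes were called higher and 50 lower, with 0 other keratins (2 at a mean FPKM of 0.1), 1 brush border, 0 absorptive, 0 secretory, 1 stem cell gene, 0 transcription factors and 0 keratin partners. Under the block KRT20 and KRT19 were called and KRT8 (0.66) was not.

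Keratin shares depended on the scale. In CPM, KRT8 held 50.0% in pcCon and 54.3% in pcYY2, KRT18 20.6% and 15.4%, KRT19 25.7% and 26.7%, and KRT20 0.0898% and 0.207%. Per kb of transcript, KRT8 held 44.6% and 48.9%, KRT19 29.4% and 30.9%, and KRT20 0.0793% and 0.184%. At 20 to 190 counts per sample, KRT20 is measured with more counting error than KRT8, KRT18 or KRT19.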
